A study of Mus musculus with 40 samples.

Results

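The alleles described here are edited DARLIN arrays for which 6 or more sequence changes were listed. They were taken from the deposited allele list of 1 mouse liver library, in which each line gives 1 allele and its changes (events) joined by commas. Of 12767 listed alleles, 830 had 6 or more events (6.50%, exact 95% binomial interval 6.08 to 6.94%), and they held 1114 of 32342 UMIs (3.44%). The number of events chose these alleles, so it is given as a description and was not tested. By number, 578 alleles had 6 events, 148 had 7, 69 had 8, 25 had 9 and 10 had 10, the maximum in the library.

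The series sampled liver pieces from 5 mice, in 40 samples marked E15_5, E12 or E10. These marks are read here as embryonic days, and what took place on that day is not stated in the labels. Files of 1 sample were analysed, the right inferior lobe of mouse YK184 marked E15_5. No source used here gives the strain, age, sex or treatment of this mouse. With 1 library there are no replicates and no comparison between stages, lobes or mice, and no test was made. Intervals are exact binomial (Clopper-Pearson) for shares and exact order-statistic intervals for medians. Those for a difference between shares combine the limits of both shares and are approximate. They treat alleles, events or UMIs as independent draws from this library and cover counting error only, although alleles share events and all alleles come from copies of 1 array.

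DARLIN mice carry arrays of Cas9 target sites, and the array read here is the one at Col1a1, a collagen gene on chromosome 11 (bases 94936224 to 94953042 in GRCm38.p6). No source used here gives the place of the array relative to the gene. The Cas9 of these mice is joined to TdT (terminal deoxynucleotidyl transferase), which lengthens free DNA ends with untemplated bases. A cut that is repaired with added or lost bases leaves a mark that daughter cells inherit, and cuts at several targets can mark 1 array several times or remove the stretch between them. Each cDNA molecule of the array received a random tag (UMI, unique molecular identifier) when it was made, so a UMI number is a number of RNA molecules, not of cells.

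Position 1 is the first base of the array. Its 10 targets of 20 bases repeat every 27 bases, and the predicted cuts lie after base 22 for site 1 and after base 265 for site 10. An event is an insertion, a deletion, a deletion with added bases (delins) or a substitution, as the authors' list writes it. The list may write 1 rearranged stretch as several events; this was not tested, since the sources used here hold no sequence of the array. Event numbers, distances and off-cut events below are therefore those of the list and not necessarily separate edits. The alleles with 6 or more events are set beside the 10257 alleles with 2 to 4 events. The 1249 alleles with 5 events lie just outside the rule.

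Many events of these alleles hold inserted stretches that recur letter for letter. Of the 10 most frequent delins that added 8 or more bases, the stretches of 8 are printed as the allele list has them, named by the bases they replaced, because several hold the same 6 letters, shown in capitals.
bases 223 to 265: tgtcgaCTCCATcg
bases 224 to 265: CTCCATcg
bases 235 to 265: cgcgaCTCCATcg
bases 154 to 236: cgaCTCCAT
bases 25 to 72: tgtgcgtacagtcgcg
bases 46 to 72: tgtgcgtacagtcgcg
bases 100 to 153: tcgacgagcgcgctc
bases 116 to 153: cgagcgcgctc
The first of these delins was present in 50 of the 830 alleles with 6 or more events and in 46 of the 10257 with 2 to 4 events. The second was present in 42 and 30 alleles of these classes. The pair that replaced bases 25 to 72 and bases 46 to 72 inserted the same 16 letters, and these delins were present in 17 and 10 alleles with 6 or more events. The delins not printed replaced bases 25 to 30 and bases 168 to 192, and their stretches lack the 6 letters in capitals. They were present in 12 and 10 alleles with 6 or more events and in 12 and 1 with 2 to 4 events. An allele with more events has more chances of holding any given delins, so these counts are a description.

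The alleles fell into forms that differ in where their events lie. In the first form, each event had at least 1 end within 3 bases of a cut, and neighbouring events were mostly a whole repeat unit apart. In the second, at least 1 event had both ends more than 3 bases from any cut (an off-cut event), and short kept stretches separated several delins. This split was made after the values had been seen. The first form made up 284 of the 830 alleles with 6 or more events (34.2%, interval 31.0 to 37.6%), against 9239 of 10257 with 2 to 4 events (90.1%, 89.5 to 90.6%). The share was 69.9% at 5 events, 45.7% at 6, 12.2% at 7 and 2.90% at 8, and no allele with 9 or 10 events was of this form. Of the alleles with 6 or more events, 120 held 3 or more off-cut events, against 1 of those with 2 to 4. More events give more chances of an off-cut event, and an allele with 2 events cannot hold 3. These shares are therefore a description and were not tested.

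The second most abundant allele with 6 or more events shows the first form. It had 9 UMIs and lost bases 24 to 76 and bases 101 to 111. It gained ag after base 130, ga after base 157 and a after base 184, the cuts of sites 5, 6 and 7. Bases 212 to 265 were replaced by ac. The 3 insertions were 27 unedited bases apart, and 165 bases of array remained.

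The most abundant allele shows the second form, with 35 UMIs. Bases 23 to 69 were replaced by tatgcgt, bases 76 to 104 were lost, and bases 114 to 150 were replaced by catcga. Bases 155 to 167 were then replaced by a, bases 176 to 217 were lost, and bases 224 to 265 were replaced by CTCCATcg. Stretches of 6, 9, 4, 8 and 6 unedited bases were all that stood between these 6 events, and 88 bases remained. It shared 4 of its events with an allele of 7 events that had 5 UMIs. The other 3 of the 5 most abundant alleles had 8, 8 and 7 UMIs and also held off-cut events. One of them, with 8 UMIs, lost bases 176 to 217 as well and had ctccatcgt in place of bases 224 to 265.

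Delins were the main kind of event. Among 5381 events of the alleles with 6 or more events, 2663 were delins (49.5%, 48.1 to 50.8%), against 8066 of 30611 events (26.35%, 25.9 to 26.8%) of those with 2 to 4 events. Insertions made up 27.8% against 37.7%, deletions without added bases 21.8% against 35.4%, and substitutions 0.966% against 0.614%. The share of delins was 29.8% in alleles with 5 events, just outside the rule, and 39.4% in those with 6. It was 59.7% at 7, 75.0% at 8, 81.3% at 9 and 81.0% at 10 events. Among alleles with 7 or more events delins made up 67.7% of events.

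The forms differed in kind of event at equal event number. Among alleles with exactly 6 events, delins made up 58.0% of events (55.7 to 60.2%) in the 314 alleles with an off-cut event, against 17.4% (15.53 to 19.3%) in the 264 without. Insertions made up 19.9% against 54.7%. The off-cut class is itself defined by event position, and insertions lie mostly at cuts, so these shares are a description.

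Along the array, insertions in these alleles lay more often at the outer ends and delins inside. The first event was an insertion in 37.6% of the alleles with 6 or more events, the last in 41.7%, and the inner events were insertions in 22.5%. Delins made up 41.2% of first, 53.5% of inner and 39.9% of last events. In alleles with 2 to 4 events, delins were 31.2% of first, 24.98% of inner and 22.8% of last events. Insertions there were 33.1% of first, 36.1% of inner and 43.8% of last events. Of the alleles with 6 or more events, 89.3% had their first event start within 3 bases of the cut of site 1, and in 98.0% the last event ended within 3 bases of that of site 10.

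The order of kinds varied widely. The 830 alleles showed 437 different orders from 5′ to 3′, of which 288 were seen once. The most frequent was a row of 6 delins, in 36 alleles, followed by a delins, a deletion and 4 delins, in 20. The most frequent order with mainly insertions was 4 insertions, a deletion and an insertion, in 8 alleles. In all, 289 alleles held 5 or more delins, 45 held 5 or more insertions, 125 held no delins and 251 held no insertion.

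Neighbouring events were close together. The median number of unedited bases between neighbours was 16 (14 to 17) over 4551 neighbour pairs in alleles with 6 or more events, against 27 (27 to 27) over 20354 pairs in those with 2 to 4 events. An array of fixed length leaves less room between more events, so part of this difference follows from the rule. The distances fell mainly into 2 ranges. In alleles with 6 or more events, 43.2% of distances were under 10 bases (41.8 to 44.7%) and 40.3% were 24 to 29 bases, about 1 repeat unit. In alleles with 2 to 4 events these shares were 6.87% (6.52 to 7.22%) and 73.5%. At 5 events the share under 10 bases was 17.8%, and at 6 events it was 30.6%.

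Short distances were listed mainly in alleles with off-cut events. Both ends of an off-cut event lie away from the cuts, also where it spans a cut. Its distance to an event at a cut can therefore be shorter than a unit, so this difference is in part built into the split. In alleles with exactly 6 events, 51.6% of distances were under 10 bases (49.1 to 54.1%) where an off-cut event was present, against 5.53% (4.36 to 6.90%) where none was. The medians were 9 and 27 bases. Delins followed by delins was the most frequent neighbour pair in alleles with 6 or more events, with 1631 of 4551 pairs (35.8%, against 7.59% in alleles with 2 to 4 events). Of these pairs 82.0% were under 10 bases apart, against 48.5% in alleles with 2 to 4 events. Insertion followed by insertion made up 568 pairs with a median of 27 bases, and 0 of them were under 10 bases apart.

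The whole units that stayed between neighbouring events ran most often from base 23 to 49, between the cuts of sites 1 and 2, in 237 alleles with 6 or more events. Bases 50 to 76 stayed in 158 and bases 239 to 265 in 150. The unit from base 131 to 157, in the middle of the array, stayed in 64. The short kept stretches were also repeated. The 1968 stretches under 10 bases were of 252 kinds, and the 10 most frequent kinds made up 31.8% of them. The most frequent was bases 73 to 74, in 75 alleles with 6 or more events and 58 with 2 to 4. Bases 105 to 113 stayed alone in 67 and 34, bases 217 to 222 in 66 and 62, and bases 44 to 50 in 65 and 8. Of all short stretches, 46.6% touched the 7 bases between targets, 22.9% spanned both parts of a target, 374 of 1968 lay wholly in its first 13 bases and 11.5% wholly in its last 7, around the cut. No share expected by chance was computed. At least 1 short stretch was present in 64.0% of the alleles with 6 or more events (60.6 to 67.2%), against 9.29% of those with 2 to 4, and 299 alleles had none. Alleles with more events have more neighbour pairs, so these shares are a description.

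Clusters of short delins inside 1 repeat unit were uncommon. A cluster was defined as at least 2 delins that each removed at most 10 bases and lay between the same pair of neighbouring cuts. Such a cluster was present in 40 of 830 alleles with 6 or more events (4.82%, 3.46 to 6.50%), against 8 of 1249 with 5 events (0.641%) and 6 of 10257 with 2 to 4 events (0.0585%, 0.0215 to 0.127%). More events give more chances of a cluster, and these shares were not tested. All 41 clusters held exactly 2 delins. No allele had 3 such delins in a unit, and 0 of 830 allows a share of up to 0.361% by 3 counts of the total (exact upper limit 0.443%). The unit between the cuts of sites 1 and 2, bases 23 to 49, held 21 clusters, the next unit 7, and the unit between the cuts of sites 6 and 7 held 4. The share depended on the limit of removed bases and on where a unit was taken to begin. With at most 5 bases removed it was 0.361%, and with units counted from the first base of a target it was 7.11%.

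The clusters removed a median of 13 bases and added a median of 14, but most were not balanced. In 23 of the 41 more bases were added, in 16 more were removed, and in 11 both numbers differed by at most 2. The difference, added minus removed, ran from -7 to 44. The most frequent cluster replaced bases 160 to 165 by cca and bases 170 to 172 by cg, in 4 alleles. Another, in 2 alleles, replaced bases 51 to 57 by tacgcatacta and bases 64 to 72 by ccatcgtgcgtgtgcgtacagtcgcg.

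Some events recurred among these alleles. Their 5381 events were of 2155 kinds, of which 1502 were seen in 1 allele and 808 were also present in alleles with 2 to 4 events. The 3 most frequent were insertion of g after base 22, in 89 alleles (10.7%), insertion of a after base 22, in 63 (7.59%), and loss of bases 76 to 104, in 53 (6.39%). In alleles with 2 to 4 events these shares were 6.57%, 5.86% and 0.244%. An allele with more events has more chances of holding any given event, so these and the following shares are a description. Counted over events, the 3 were 89, 63 and 53 of 5381, against 674, 601 and 25 of 30611. The replacement of bases 181 to 186 by tact was present in 50 alleles (6.02%), against 41 of those with 2 to 4 events (0.400%). The replacement of bases 51 to 57 by ta was present in 45 against 4, that of bases 177 to 187 by g in 40 against 2, and that of bases 142 to 149 by tcagcgt in 15 against 0. Loss of bases 185 to 238, exactly between the cuts of sites 7 and 9, was present in 32 alleles (3.86%), against 214 (2.09%).

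Certain events stood next to each other repeatedly. Loss of bases 176 to 217 followed by CTCCATcg in place of bases 224 to 265 was present in 27 alleles, out of 48 with the loss and 42 with the replacement. In alleles with 2 to 4 events this pair was present in 20, out of 26 with the loss and 30 with the replacement. Replacement of bases 25 to 43 by tgta was followed by ta in place of bases 51 to 57 in 14 of 26 alleles. Replacement of bases 127 to 131 by tatcg was followed by agcgc in place of bases 155 to 165 in 8 of 10. These later pairs were present in 1 and 0 alleles with 2 to 4 events. Their parts were also rare in that class. The tgta replacement was present in 3 of its alleles, the ta replacement in 4 and the agcgc replacement in 9. The allele with 10 events that had the most UMIs, 3, held several of the recurring events. It began with g after base 22 and went on through 8 delins and the loss of bases 76 to 104, ending with CTCCATcg in place of bases 224 to 265. Its sixth event replaced bases 154 to 172 by actcgaCTCCATcggcg. It removed 166 and added 64 bases, so 174 remained. The next 4 alleles with 10 events had 1 or 2 UMIs each, held 3 to 5 off-cut events and kept 159 to 173 bases.

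The inserted bases differed by kind of event. Insertions in alleles with 6 or more events had a median of 1 base, and 96.5% had 1 to 3, against a median of 2 and 95.0% in those with 2 to 4. A and G made up 82.0% of their bases, against 80.9%. Delins in alleles with 6 or more events added a median of 5 bases, against 2, and 38.3% added 8 or more (36.5 to 40.2%), against 11.4% (10.7 to 12.1%). A and G made up 42.8% of their added bases, against 57.2%, and C made up 32.8% against 22.2%. Where a delins added only 1 to 3 bases, A and G made up 56.1% against 72.5%. Delins removed a median of 22 bases in alleles with 6 or more events, against 108.

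The 9-letter word most often found in inserted stretches, CGACTCCAT, was chosen after the stretches had been seen. It was present in 185 of the 830 alleles (22.3%, 19.5 to 25.3%), against 239 of 10257 with 2 to 4 events (2.33%, 2.05 to 2.64%). Most of this difference was in how many alleles held a stretch long enough to contain the word. Among alleles with an inserted stretch of 9 or more bases, it was present in 46.8% of 395 against 38.2% of 625. The word lay in 106 different events that began in 10 different repeat units. The same letters read as the reverse complement, ATGGAGTCG, were present in 2 alleles with 6 or more events. The next word that shares no run of 6 letters with it, TGTGCGTAC, was present in 84 alleles and its reverse complement in 2. Where these letters come from was not tested, since the sources used here hold no sequence of the array.

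Sites altered on their own lay along the whole array. The number of such sites is tied to the number of events that chose the alleles, so it is a description. On average 4.06 sites per allele were altered with no listed deletion joining them to another site, against 1.48 in alleles with 2 to 4 events. Site 1 was altered alone in 69.8% and site 10 in 59.4%, against 42.4% and 53.6%. Among the other sites the share was highest at site 2 (50.1%) and lowest at site 4 (23.5%, 20.6 to 26.5%). At sites 3 to 8 it was 23.5 to 37.1%, against 1.88 to 5.64%. Deletions joining sites were also more numerous, with a mean of 2.03 per allele against 1.49, and 71.9% held 2 or more against 43.1%. Single deletions were shorter: the median number of bases removed by a deletion or delins was 23, against 107. All 10 sites were altered in 96.0% of the alleles (797 of 830), against 89.1%, so an intact target was present in 33.

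The remaining length was greater in these alleles. It depends on the events that chose the alleles, so it is a description and was not tested. The median remaining length, the full array minus removed plus added bases, was 148 bases (146 to 150; quartiles 128 and 168; range 71 to 211), against 89 bases (89 to 89; quartiles 66 and 101; range 26 to 227). They removed a mean of 156 bases and added 26.2, against 193 removed and 4.73 added. The length was 139 bases at 5 events, 149 at 6, 145 at 7, 146 at 8, 158 at 9 and 169 at 10. As listed, the longer arrays at 10 events held more added bases, and the number of removed bases was not lower. Whether the added bases came from the array was not tested. The mean number removed was 149 at 6 and 174 at 10 events, and the mean number added was 19.5 and 67.1. Alleles with exactly 6 events and an off-cut event kept a median of 132 bases (121 to 136), and those without one kept 170 (168 to 171). The median number of bases added in them was 25 and 7. The shortest array with at least 2 UMIs kept 71 bases, after 228 were removed and 23 added, and had 8 UMIs. The longest kept 183 bases and had 2 UMIs. It lost bases 23 to 115 and was altered alone at 6 sites.

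Alleles with 6 or more events had few UMIs each. They had a mean of 1.34 and a median of 1 UMI, against a mean of 2.27 and a median of 1 in alleles with 2 to 4 events. Of the 830 alleles, 682 had 1 UMI (82.2%, 79.4 to 84.7%), 98 had 2 and 50 had 3 or more, against 60.5% with 1 UMI (59.6 to 61.5%). Alleles with 5 or more UMIs numbered 12 (1.45%), against 916 (8.93%). The largest had 35 UMIs, against 157. The difference in the share with 1 UMI was 21.6 percentage points (18.7 to 24.3). Against the alleles with 5 events, of which 79.1% had 1 UMI, it was 3.07 points (-0.493 to 6.54).

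The UMI difference moved with remaining length. UMIs per allele were fewer in longer arrays of both classes. Among arrays of 100 to under 120 bases, 77.9% of 154 alleles with 6 or more events had 1 UMI, against 74.4% of 1893 with 2 to 4. At 140 to under 160 bases the shares were 81.3% of 241 and 87.7% of 187, and at 160 to under 180 bases 88.7% of 292 and 92.6% of 54. When the alleles with 2 to 4 events were weighted to the same 10-base length bands, 82.1% of the alleles with 6 or more events had 1 UMI, against 85.9%, a difference of -3.79 points, and the mean was 1.34 against 1.24 UMIs. This weighting was chosen after the values had been seen. In the broader range of 80 to under 120 bases, 74.4% against 64.0% had 1 UMI, a difference of 10.5 points (3.36 to 16.8). Lengths were not equal inside this range: 154 of 180 alleles with 6 or more events had 100 to under 120 bases, against 1893 of 6119. The difference thus depended on how length was taken into account. What part length, event number or cell number has in it was not tested.

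An allele that extended a shorter listed allele by 1 event was uncommon here. All remaining events must match, so this share is tied to the number of events that chose the alleles and was not tested. Leaving out 1 event gave another listed allele for 10 of 830 (1.20%, 0.579 to 2.20%), against 22 of 1249 with 5 events (1.76%, 1.11 to 2.65%) and 1752 of 10257 with 2 to 4 events (17.1%). In 9 of the 10, the event left out lay within bases 1 to 3, before the first target, and all 10 had 1 UMI. Partial overlap was counted as the most events shared with any 1 other listed allele. More events and common single events give more chances of such a match. No share expected by chance and no value for the other classes is given, so these counts are a description. At least 3 events were shared with 1 other listed allele in 432 alleles (52.0%, 48.6 to 55.5%), 2 in 348, 1 in 49, and 0 in 1. All events but 1, or more, were shared with 1 other allele in 41. None of these 41 had a UMI within 1 base of a UMI of that other allele, and 0 of 41 allows a share of up to 7.32% by 3 counts of the total (exact upper limit 8.60%).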

How the data were processed

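Per the labels' protocols, RNA from liver was reverse transcribed with an array-specific primer that carries a UMI, and the array at Col1a1 was amplified by nested PCR. Per the submitters' processing notes, the genome build was mm10. The allele caller with its version and filters is not given in the sources used. The authors deposited 2 text lists for the library, 1 with the events of each allele and 1 with its 12-base UMIs, and no read numbers, so read depth is unknown and the 32342 UMIs set the precision. No UMI was listed under more than 1 allele.

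UMIs and events were counted from the lists with Python 3.11.15, numpy 2.4.6 and scipy 1.17.1. The array layout was taken from general knowledge. A site counted as altered if any event reached the final 7 bases of its target, the cut window, and as joined when 1 deletion touched the windows of 2 or more. Sequences are as the lists give them. Lengths, distances, sites and clusters were recovered for 100% of 1000 simulated alleles. Distances were not checked in simulated alleles with a cluster. Deletions joining sites were simulated apart, and only their sites were checked.

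Alleles were named by a rule: the 5 with most UMIs, 5 with most events, the shortest and longest arrays with at least 2 UMIs, and the 3 most frequent events. Other events, words and kept stretches were named after their values were seen. The alleles and measures were chosen with earlier results of these data known. No test was made, since 1 library gives no groups.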

Additional observations from a re-analysis of the deposited data

How the results depend on the processing

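Over 15 settings, 25 of 49 recomputed values for the 7 results lay within the interval of the reported value, 23 did not, and 1 changed sign. No paired analysis was possible because 1 library was analysed. With only alleles of 2 or more UMIs, 148 alleles remained (3.14%), with 53.6% delins, a median distance of 10 bases, a median length of 143 bases, clusters in 3.38% and 0% that extended a listed allele, which allows up to 2.03% by 3 counts of the total (exact upper limit 2.46%). With events under 4 bases apart counted as 1, 687 alleles remained (5.38%), with 44.2% delins, a distance of 22 bases and a length of 154 bases. With 7 or more events the values were 1.97% of alleles, 67.7% delins, 8 bases between events and clusters in 8.73%. Weighting by UMIs gave 3.44%, 50.9% delins and 12 bases. Clusters were found in 0.361% with at most 5 bases removed, 0% with 3 or more delins, and 7.11% with units from the target start. The difference in the share with 1 UMI was 10.5 points at lengths of 80 to under 120 bases, 3.07 against alleles with 5 events and -3.79 at equal length. Leaving out events within bases 1 to 5 gave 0.124% that extended a listed allele. That setting and equal length were added after seeing the data. A value for alleles with 1 UMI could not be had where a minimum of 2 was set. For a changed value not explained by fewer alleles or events, the cause was not tested.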

Other observations

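Events that lay wholly within bases 1 to 5, before the first target, were present in 42 of the 830 alleles with 6 or more events (5.06%), against 101 of 10257 with 2 to 4 events (0.985%), and all 42 had 1 UMI. Without these events 805 alleles had 6 or more. Substitutions were present in 51 alleles with 6 or more events (6.14%), against 188 (1.83%), and all 52 of them lay within 3 bases of a cut. With more events an allele has more chances of holding either kind, so these shares are a description.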
